A study of Homo sapiens with 6 samples.

Results

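The genes described here are 10 cytosolic and mitochondrial heat shock chaperones, HSP90AA1, HSP90AB1, HSPA1A, HSPA1B, HSPA8, HSPH1, DNAJB1, HSPB1, HSPD1 and HSPE1, out of 19429 distinct gene names in the deposited tables. They were chosen by name, and each had 1 row in the tables. RNA was sequenced from PC-3 cells, an established human prostate cancer line, which were left without treatment or were treated for 48 h with GPNA (l-γ-glutamyl-p-nitroanilide) at 1 mM or BenSer (benzylserine) at 10 mM. Both compounds are amino acid analogues used to block the glutamine transporter ASCT2 (SLC1A5). The concentrations differ, so the treatments are set side by side and not ranked by potency. The labels name 2 libraries in each of the 3 groups, and all of them come from 1 cell line in culture. The compounds were made up in water, and the labels of the control name no treatment.

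Heat shock chaperones hold, fold and refold proteins. The HSP70 proteins bind exposed hydrophobic stretches of a client in a cycle driven by ATP. J proteins such as DNAJB1 deliver clients and start the cycle, while nucleotide exchange factors such as HSPH1 reset it. HSP90 acts later, on nearly folded clients that include kinases and steroid receptors, and small heat shock proteins such as HSPB1 hold unfolded clients without ATP. In the mitochondrial matrix, HSPD1 (HSP60) forms a folding chamber that HSPE1 (HSP10) closes. Under proteotoxic stress, heat shock factor 1 (HSF1) binds alternating repeats of a short unit, GAA or its complement TTC, in the promoters of many of these genes.

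Those repeats are shown first. The members were chosen as heat shock genes, so a high share with such repeats follows in part from that choice. The promoter windows run from 250 bases before to 50 bases after a start site. RefSeq windows (GRCh38.p14) were found for all 10 genes, 16 windows in all, and each was located in GRCh37 by an exact match. Both strands were searched for a pair of units in either order, spelled GAANNTTC and TTCNNGAA, which overlap where 3 units alternate. The capitals mark the units, each sequence is given 5′ to 3′ on the strand of its gene, and the span after the name is in GRCh37. The first 3 sequences carry isolated pairs. The others carry at least 3 alternating units, with a further isolated pair in HSP90AA1 and a run of 4 units in HSPD1. A second run of 3 units in HSPA8, at −230 to −218 from the start site, is not printed. The pair of HSPB1, at −182 to −175, and a pair in another DNAJB1 window are also not printed.
HSPA1A, chr6:31783194-31783241, plus strand: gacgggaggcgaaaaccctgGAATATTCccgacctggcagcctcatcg
HSPA1B, chr6:31795390-31795437, plus strand: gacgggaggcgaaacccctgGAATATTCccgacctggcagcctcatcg
DNAJB1, chr19:14629229-14629306, minus strand: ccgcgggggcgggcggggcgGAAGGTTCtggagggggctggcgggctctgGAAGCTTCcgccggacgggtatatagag
HSPA8, chr11:122932867-122932919, minus strand: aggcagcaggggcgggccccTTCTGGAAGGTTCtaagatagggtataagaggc
HSP90AA1, chr14:102553422-102553489, minus strand: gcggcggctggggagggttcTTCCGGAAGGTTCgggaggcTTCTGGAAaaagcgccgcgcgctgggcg
HSP90AB1, chr6:44215495-44215600, plus strand: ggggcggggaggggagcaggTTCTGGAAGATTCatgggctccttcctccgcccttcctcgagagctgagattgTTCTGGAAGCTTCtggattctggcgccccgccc
HSPD1, chr2:198364772-198364814, minus strand: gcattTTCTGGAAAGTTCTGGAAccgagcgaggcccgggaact

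GAANNTTC was present in the windows of 8 of the 10 genes and in 9 of their 16 windows (56.2%), against 6.77% of all 35116 windows of the same length. Counted by gene, 8.21% of the 27305 genes with a window held it. TTCNNGAA was present in 4 of the members, HSP90AA1, HSP90AB1, HSPA8 and HSPD1, against 9.46% of all genes (7.74% of windows). The same 4 genes held 3 alternating units, against 0.608% of all genes (0.490% of windows). HSPA1A, HSPA1B, DNAJB1 and HSPB1 held pairs only by these exact matches, and no pair was found in the windows of HSPH1 and HSPE1. The search allowed no mismatch, so imperfect units were not counted. In HSPA1A and HSPA1B gac, and in DNAJB1 gag, stands where a further unit would follow a pair. CCAAT, the core of the NF-Y site, was found in 5 of the genes (DNAJB1, HSP90AA1, HSPA1A, HSPA1B and HSPA8) and in 39.7% of all genes (34.6% of windows). TATAAA was found in HSPA1A and HSPA1B and in 3819 of the 27305 genes (11.5% of windows). A match describes these letters only and is no evidence of binding.

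**Figure D1:**
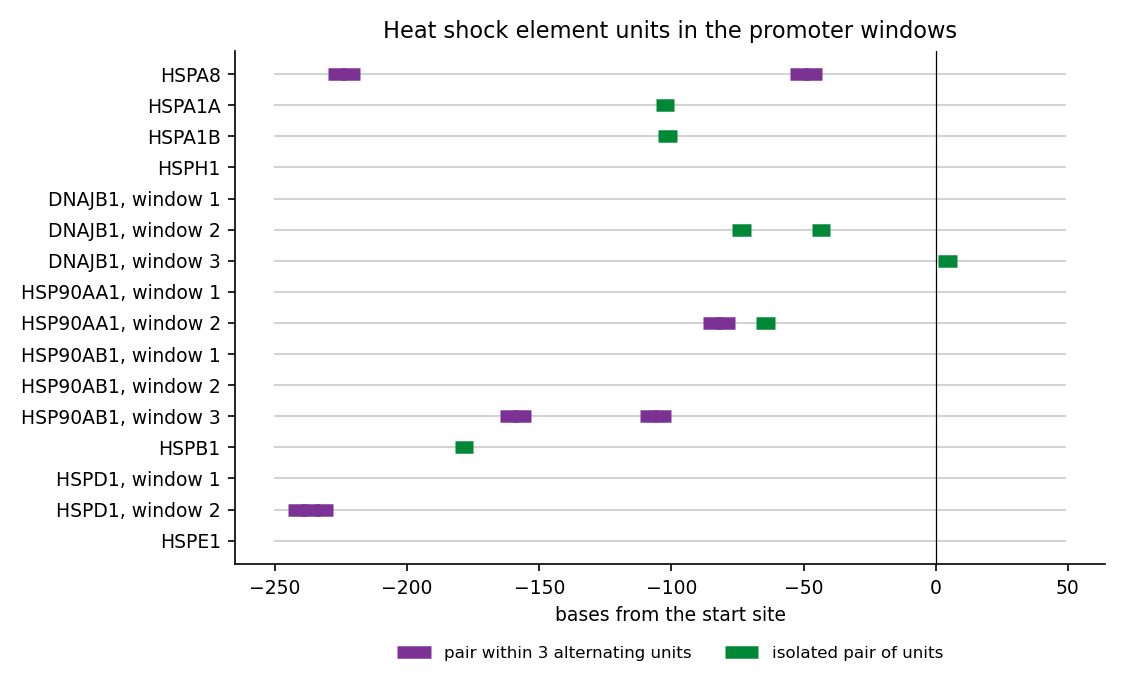
Positions of paired heat shock element units in the 16 promoter windows of the 10 genes, in bases from the start site (0); purple marks pairs that belong to 3 alternating units and green marks isolated pairs. Purple marks lie in HSPA8, HSP90AA1, HSP90AB1 and HSPD1 only among these windows, and the windows of HSPH1 and HSPE1 are empty.

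HSPD1 on the minus strand (chr2:198351308-198381461, GRCh37) and HSPE1 on the plus strand (chr2:198364864-198368173) are transcribed away from a common promoter region. The annotated HSPD1 span, with its longest isoform, covers HSPE1, but none of its exons overlaps the HSPE1 transcript. One HSPD1 window overlapped the HSPE1 window by 204 bases. The repeat of units in the other HSPD1 window is 18 bases long and ends 43 bases before the HSPE1 window opens, 294 bases from the RefSeq start site of HSPE1, so the empty HSPE1 window lies beside a repeat and not far from one. HSPA1A (chr6:31783320-31785723) and HSPA1B (chr6:31795515-31798031) are single-exon genes side by side on the same strand. The others are HSPA8 (chr11:122928197-122933938), HSP90AA1 (chr14:102547079-102606036), HSP90AB1 (chr6:44213903-44221625), HSPH1 (chr13:31709110-31736525), DNAJB1 (chr19:14625581-14671203) and HSPB1 (chr7:75931990-75933612). The promoter windows of HSPA1A and HSPA1B were identical at 277 of 299 aligned bases (92.6%), and 73.8% of all 75-base stretches of the HSPA1A transcript also occur in HSPA1B. The division of reads between these copies is therefore uncertain, whereas no such stretch was shared by HSPA1A and HSPA8 or by HSP90AA1 and HSP90AB1.

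The depth of the libraries (total reads) was 23227180 and 23077986 for untreated cells, 25798967 and 25452745 for GPNA and 32178154 and 31943025 for BenSer. Both libraries of a group differed by hardly more than the drawing of reads (chi-square per degree of freedom 1.05 to 1.06, against 5.50 to 20.7 between libraries of different groups). They were counted as 1 sample, so there is no replicate check and no test of a treatment, and n is 1 per group throughout. Levels are reads per 1000000 reads of the library (CPM). Differences are treated minus control in log2(CPM + 1), with exact 95% intervals (Clopper-Pearson) from the reads of both libraries added together, which cover counting error only. In a bulk culture, fewer cells with a transcript and less of it per cell cannot be told apart. The 6 genes taken as marks of PC-3 cells, among them KRT8, VIM and CD44, stood at 85.0 to 292 CPM. Of 3 genes of other cell types, COL1A1 was listed, at 3.65 to 6.07 CPM.

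Per length of transcript, HSPA8 and the HSP90 genes led. In the control, HSPA8, the constitutive HSP70, stood at 756 CPM per kb, followed by the HSP90 genes HSP90AB1 at 399 and HSP90AA1 at 335 CPM per kb. HSPB1 (129 CPM per kb) and HSPD1 (112 CPM per kb) formed a middle range. DNAJB1 was at 37.4, HSPA1A at 23.5, HSPH1 at 22.8 and HSPA1B at 9.45 CPM per kb. HSPE1 was last at 4.11 CPM per kb, far below its partner HSPD1, although the proteins work as a pair. Of its 557 transcript bases, 192 (34.5%) are shared on the same strand with the read-through gene HSPE1-MOB4, which was not listed. Other copies of HSPE1 were listed, at levels that together stayed below its own in each group. The part of shared bases and of such copies in its low count was not tested. The count is therefore not taken as a measure of how much HSPE1 transcript the cells held. All neighbours in this order had counting intervals that did not overlap, except HSPA1A (22.6 to 24.4 CPM per kb) and HSPH1 (22.2 to 23.4 CPM per kb). The order was the same with GPNA and with BenSer. How reads that fit both HSPA1A and HSPA1B were counted is not given. If such reads were left out, the levels of these copies per kb are too low, which was not tested. Together the 10 genes took 0.445% of the reads in each control library, 0.393% and 0.398% under GPNA, and 0.408% and 0.412% with BenSer.

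With GPNA, all 10 genes were lower than in the control, each by less than 1.5-fold. The differences ran from −0.32 for HSP90AA1 to −0.07 for DNAJB1, with a median of −0.13 beside −0.03 over the 18828 genes with enough reads and −0.06 over those at 20 CPM or more in the control. Both GPNA libraries lay below both control libraries for all 10 genes, as they did for 34.4% of all genes and 55.5% of those at 20 CPM or more. The counting interval lay below 0 for 9 of them, HSPE1 being the exception. Intervals below 0 were found for 20.1% of all genes and, since the interval narrows with the number of reads, for 43.7% of the genes at 20 CPM or more in the control. Intervals above 0, which none of the members had, were found for 9.78% of all genes and 13.1% of the genes at that level. The shift also lay in the whole table, where 69.9% of genes at 20 CPM or more were lower with GPNA. With scaling by TMM or by DESeq2's size factors, which centre the bulk of genes, all 10 genes were still lower, but the interval lay below 0 for 6 of them, since those of HSPA1A, HSPA1B and DNAJB1 then held 0 as well. Without the first GPNA library the same 4 intervals held 0, so that 6 lay below it, and with another library left out 7 or 8 did. At least a 1.5-fold difference in either direction was found for 0.404% of all genes and for none of the 10.

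With BenSer, the members divided. HSPA1A and HSPA1B, the inducible HSP70 genes, were higher by more than 1.5-fold, HSPH1 and DNAJB1 were higher by less, and HSPA8, HSP90AA1, HSP90AB1 and HSPD1 were lower. HSPB1 and HSPE1 had intervals that held 0. At least 1.5-fold higher levels were found for 1.96% of all 18976 genes and lower ones for 1.58%, and none of the members was that much lower. Under TMM scaling the split over all genes was 432 higher and 214 lower, in place of 371 and 300, and the count among the members was still 2. Intervals above 0 were found for 18.2% of all genes and 27.6% of those at 20 CPM or more in the control, against 4 of the 10 members. Intervals below 0 were found for 25.8% and 46.4%, also against 4 members. Since 9 of the 10 members stood at 20 CPM or more, the shares at that level are the closer background. Both BenSer libraries lay above both control libraries for 4 members, against 28.5% of all genes and 32.8% at that level, and below them for 5, against 37.5% and 52.3%. The median over the 10 genes was −0.01, or 0.03 under TMM and DESeq2's scaling, and describes none of them; without the second control library it was 0.01. Over genes at 20 CPM or more the median was −0.06.

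**Figure D2:**
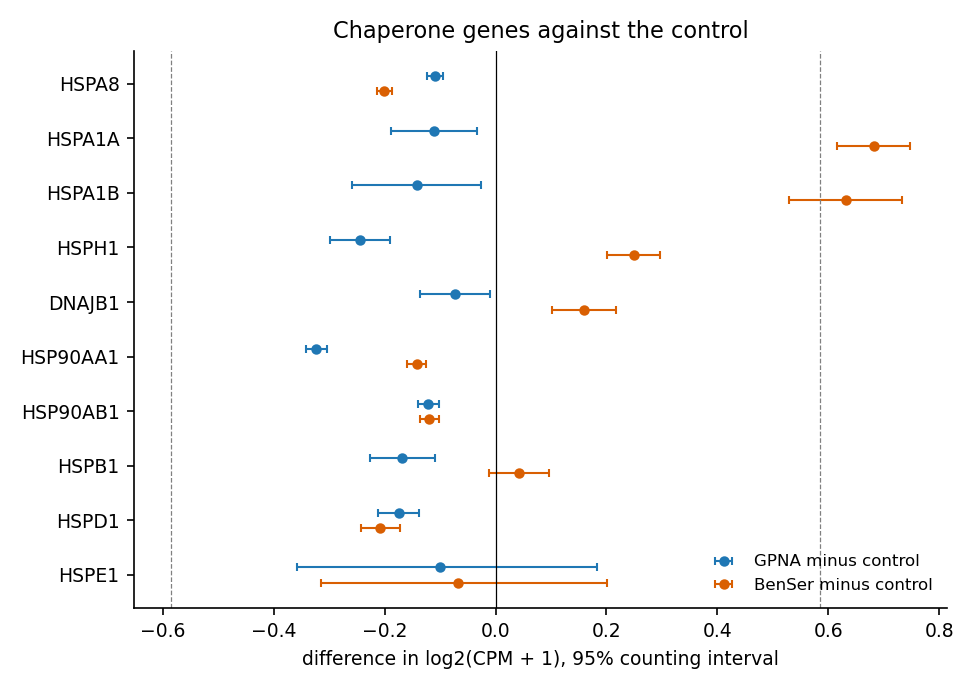
Difference from the control in log2(CPM + 1) for each of the 10 genes with GPNA (blue) and BenSer (orange); bars are 95% counting intervals and dashed lines mark 1.5-fold. All blue points lie below 0, whereas the orange points run from −0.21 for HSPD1 to 0.68 for HSPA1A.

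HSPA1A and HSPA1B encode nearly the same HSP70 protein, which is scarce in resting cells of most tissues and made in quantity after heat. HSPA1A was at 57.3 and 55.5 CPM in untreated cells, 50.1 and 54.2 CPM with GPNA and 91.3 and 90.9 CPM with BenSer. Both BenSer libraries stood above all the others, and the GPNA libraries lay slightly below the control. The ratio of BenSer to control was 1.61 (1.54 to 1.69), a difference of 0.68 (0.62 to 0.75), and with GPNA the difference was −0.11 (−0.19 to −0.03), or −0.06 without the first GPNA library and −0.17 without the second. HSPA1B was at 24.2 and 23.4 CPM in untreated cells, 20.2 and 22.7 CPM with GPNA and 36.1 and 38.6 CPM with BenSer. It showed the same pattern at a lower level, with a BenSer to control ratio of 1.57 (1.46 to 1.69), a difference of 0.63 (0.53 to 0.73), and −0.14 (−0.26 to −0.03) with GPNA, or −0.07 without the first GPNA library and −0.22 without the second. Without the second BenSer library its difference was 0.58, just under 1.5-fold, which left 1 member past that threshold. HSPA1A took 70.3% of the reads of both copies in untreated cells and 70.9% under either compound, with overlapping intervals, so the copies moved in proportion as far as reads that both could claim allow.

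HSPA8 went the other way. This gene supplies most HSP70 of unstressed cells and also uncoats clathrin vesicles. Its level was 1718 and 1705 CPM in untreated cells, 1603 and 1570 CPM with GPNA and 1498 and 1480 CPM with BenSer. The 3 groups did not overlap, and BenSer was lowest. The differences were −0.11 (−0.12 to −0.09) with GPNA, or −0.07 under TMM scaling, and −0.20 (−0.21 to −0.19) with BenSer. The share of the inducible copies in the reads of HSPA1A, HSPA1B and HSPA8 combined was 4.48% (4.34% to 4.62%) in untreated cells, 4.43% (4.30% to 4.57%) with GPNA and 7.94% (7.78% to 8.11%) with BenSer. A share within a library does not depend on the scaling. Even with BenSer, most of the counted reads came from HSPA8. How reads that fit both HSPA1A and HSPA1B were counted is not given in the sources used here. If such reads were left out, the share of the inducible copies is too low in every group. This was not tested.

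**Figure D3:**
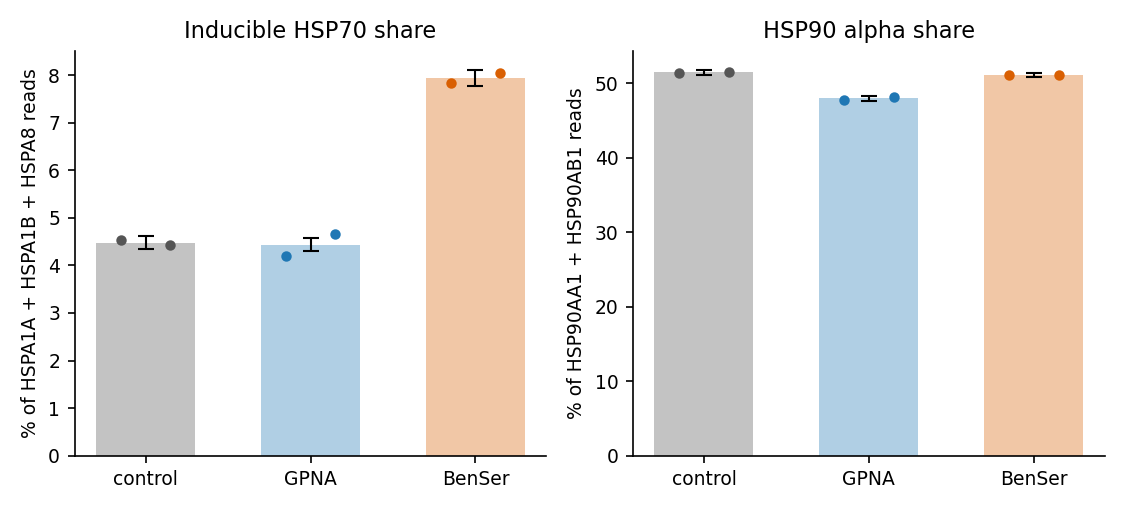
Left, reads of HSPA1A and HSPA1B as a percentage of the reads of HSPA1A, HSPA1B and HSPA8; right, reads of HSP90AA1 as a percentage of the reads of HSP90AA1 and HSP90AB1. Bars are merged libraries, black bars exact 95% binomial intervals and points single libraries; the BenSer bar stands out on the left at 7.94%, the GPNA bar on the right at 48.0%.

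HSPH1 (HSP110) and DNAJB1 (HSP40), the exchange factor and the J protein of the set, resembled the inducible HSP70 genes in direction. HSPH1 was at 120.7 and 118.1 CPM in untreated cells, 103.0 and 98.2 CPM with GPNA and 142.6 and 141.7 CPM with BenSer. The groups did not overlap, with the control between the treatments: the difference was −0.25 (−0.30 to −0.19) with GPNA and 0.25 (0.20 to 0.30) with BenSer. DNAJB1 was at 83.7 and 84.2 CPM in untreated cells, 79.8 and 79.6 CPM with GPNA and 95.4 and 92.3 CPM with BenSer. The order was the same with smaller distances, −0.07 (−0.14 to −0.01) with GPNA, or −0.03 under TMM scaling, and 0.16 (0.10 to 0.22) with BenSer. GPNA libraries below and BenSer libraries above both control libraries, as in HSPA1A, HSPA1B, HSPH1 and DNAJB1, were found for 5.59% of all genes and 10.9% of those at 20 CPM or more.

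**Figure D4:**
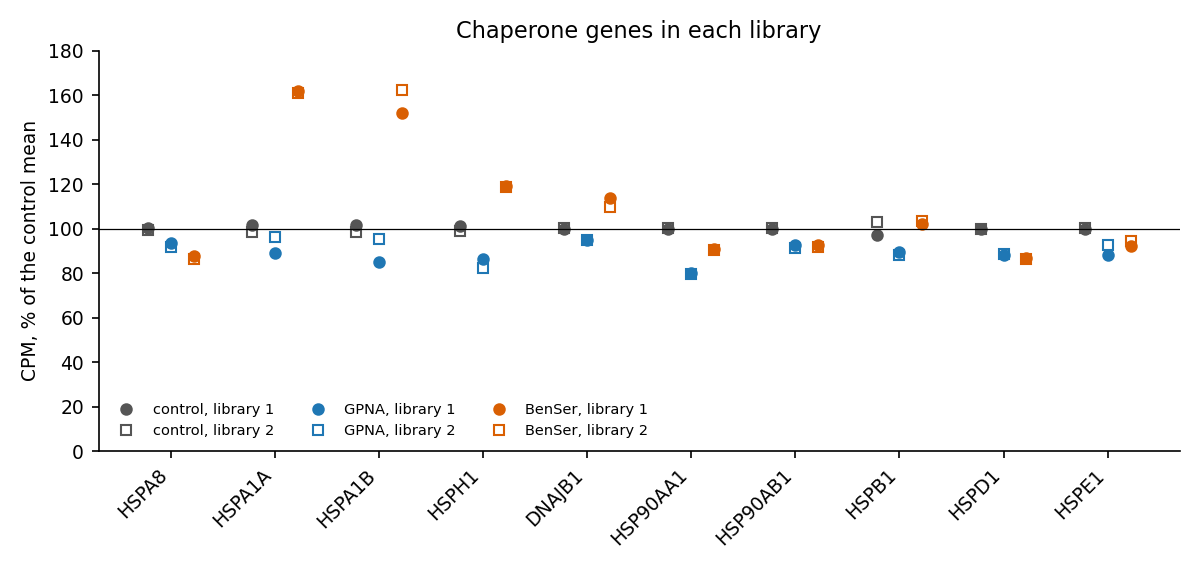
CPM of each of the 10 genes in each of the 6 libraries, as a percentage of the mean of the control libraries (line at 100); filled circles are library 1 and open squares library 2 of a group. BenSer libraries lie above all others for HSPA1A, HSPA1B, HSPH1 and DNAJB1, and GPNA libraries lie below the line for all 10 genes.

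The HSP90 genes were lower with both compounds. HSP90AA1 encodes the stress-responsive HSP90 alpha and stood at 1079 and 1086 CPM in untreated cells, 866 and 864 CPM with GPNA and 985 and 977 CPM with BenSer. GPNA was lowest, and the difference of −0.32 (−0.34 to −0.30) was the largest of the set for that compound. With BenSer the difference was −0.14 (−0.16 to −0.13). HSP90AB1, which encodes the constitutive HSP90 beta, ranged over 1019 to 1022 CPM in the control and 932 to 945 CPM across all 4 treated libraries, a difference of −0.12 with each compound, or −0.08 with GPNA and −0.07 with BenSer under TMM scaling. HSP90AA1 took 51.5% (51.2% to 51.8%) of the reads of the pair in untreated cells, 48.0% (47.6% to 48.3%) with GPNA and 51.1% (50.8% to 51.4%) with BenSer. The balance of alpha and beta thus differed with GPNA by more than the counting error, and with BenSer the intervals overlapped those of the control.

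HSPB1 (HSP27) ranged over 97.3 to 103.3 CPM in untreated cells, 88.4 to 89.9 CPM with GPNA and 102.6 to 104.0 CPM with BenSer. Only its GPNA libraries stood apart, with a difference of −0.17 (−0.23 to −0.11), while that with BenSer was 0.04 (−0.01 to 0.10), with an interval above 0 under TMM and DESeq2's scaling. Without the first control library the BenSer value was −0.0004, and without the second 0.09. HSPD1 was at 250.7 and 250.6 CPM in untreated cells, 221 and 222 CPM with GPNA and 218 and 216 CPM with BenSer. It was lower with both compounds, by −0.17 (−0.21 to −0.14) and −0.21 (−0.24 to −0.17). HSPE1 had 106 merged reads in untreated cells, 106 after GPNA and 137 after BenSer, which is 2.02 to 2.30 CPM in all libraries. At this depth a difference between groups was not detectable, with −0.10 (−0.36 to 0.18) for GPNA and −0.07 (−0.31 to 0.20) for BenSer.

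Set against the repeats shown above, all 4 genes with 3 alternating units (HSPA8, HSP90AA1, HSP90AB1 and HSPD1) were lower with BenSer, by −0.21 to −0.12. The 4 genes with isolated pairs (HSPA1A, HSPA1B, DNAJB1 and HSPB1) had differences of 0.04 to 0.68, and the interval of HSPB1 held 0 (−0.01 to 0.10). With GPNA both kinds were lower and overlapped, at −0.32 to −0.11 for the former and −0.17 to −0.07 for the latter. HSPH1, with no pair in its window, was higher with BenSer and HSPE1, also with none, had an interval that held 0. The classes rest on exact matches. In HSP90AA1, HSP90AB1 and HSPD1 the units lie in a single window, and the other windows of these genes held no pair. Window 1 of DNAJB1 also held none. Which start sites PC-3 cells used was not tested. This is a description of 10 genes that share promoters or copies among them, and no test was made of it.

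Between the treated groups, with unequal concentrations, BenSer minus GPNA ranged from −0.09 for HSPA8 to 0.79 (0.73 to 0.86) for HSPA1A, with a median of 0.20 beside −0.01 over all genes. HSPA1A and HSPA1B were at least 1.5-fold higher with BenSer than with GPNA, as 1.05% of all 19056 genes were. The interval lay above 0 for 6 of the members, against 21.2% of all genes and 36.7% of those at 20 CPM or more with GPNA. It lay below 0 for HSPA8 alone, against 20.7% and 35.4%. HSP90AB1 was nearly equal in the treated groups (0.00, −0.02 to 0.02).

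edgeR's quasi-likelihood test was run on the recovered reads with the library totals as they stand, without TMM factors. A shift of the whole table therefore stays in its calls. The test takes the libraries of a group as separate samples and so compares libraries and not treatments. With GPNA it called 7 of the 10 genes, all lower, against 13.7% of all genes called lower. The genes not called were HSPA1B, DNAJB1 and HSPE1. With BenSer it called 4 of the genes higher, against 15.8% of all genes, and 4 lower, against 22.5%. HSPB1 and HSPE1 were not called. The shares given here are over all genes tested. Shares of calls among genes at 20 CPM or more, the closer background, were not computed.

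The regulators of the response came next. HSF1, the main heat shock factor, was at 37.9 CPM in untreated cells, 33.8 CPM with GPNA and 39.1 CPM with BenSer, with differences of −0.16 (−0.25 to −0.06) and 0.05 (−0.04 to 0.13). HSF1 was chosen for mention after its values were seen. Of the 5 factors and regulators, 1 had an interval below 0 with GPNA, against 20.1% of all genes. With BenSer 1 had an interval above 0, against 18.2%, which was HSBP1L1 at 0.18 (0.06 to 0.30). HSF2, a second heat shock factor, had the lowest value with BenSer, −0.13 (−0.29 to 0.05). The median was −0.02 with GPNA, or 0.02 under TMM scaling and also without the second GPNA library, and −0.08 without the first. With BenSer it was 0.05, or 0.09 under TMM scaling and 0.01 with 1 of the BenSer libraries left out, whichever it was.

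The other cytosolic HSP70 genes and J proteins lay on both sides of the control with BenSer. For 6 other HSP70 genes the median was −0.04 with GPNA, with 2 intervals below 0, and 0.01 with BenSer, with 2 above and 1 below 0. Intervals on those sides were found for 20.1%, 18.2% and 25.8% of all genes, in that order. With single libraries left out these medians ran from −0.07 (without the second control library) to −0.0005 (without the first), and from −0.04 (without the second control library) to 0.02 (without the first), so the BenSer median changed sign. Under TMM scaling they were −0.0036 and 0.05. HSPA4, an exchange factor of the HSP110 group like HSPH1, was lower with both compounds, −0.17 with GPNA and −0.20 (−0.25 to −0.15) with BenSer. HSPA4L, its close relative, was at −0.13 with GPNA and 0.12 (0.00 to 0.23) with BenSer. For 9 other J proteins the medians were −0.07 with GPNA, or −0.03 under TMM scaling, and 0.10 with BenSer, or 0.18 without the first BenSer library, 0.01 without the second and 0.03 without the second control library. DNAJB4, a relative of DNAJB1, was past 1.5-fold, at 8.51 CPM in untreated cells, 8.39 CPM with GPNA and 14.5 CPM with BenSer, a difference of 0.71 (0.55 to 0.87) with BenSer. DNAJB2 was just short of it, at 31.2 CPM in untreated cells and 46.4 CPM with BenSer, a difference of 0.56 (0.47 to 0.65) that became 0.60 and passed 1.5-fold under TMM scaling; it was chosen after its values were seen. DNAJC2, a J protein bound to the ribosome, was lowest with BenSer, at −0.21 (−0.31 to −0.11), and was −0.20 with GPNA. The heat-inducible HSPA6 had 106 merged reads in the control and 194 with BenSer, a difference of 0.29 (0.04 to 0.57); it was chosen after its values were seen.

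For the cofactors, the background is that 69.9% of genes at 20 CPM or more were lower with GPNA and 59.7% with BenSer, and that 43.7% and 46.4% of them had intervals below 0. All 7 nucleotide exchange factors and partners were below the control with both compounds, with medians of −0.20 with GPNA and −0.29 with BenSer and 6 intervals below 0 in each case; under the other scalings 6 of 7 were lower with GPNA and 7 of 7 with BenSer. STUB1, the ubiquitin ligase that marks chaperone clients for degradation, was lowest with BenSer (−0.45, −0.60 to −0.29) and was −0.27 with GPNA. BAG4 was nearest to the control with BenSer, −0.05 (−0.14 to 0.04). BAG3, an exchange factor that is itself heat-inducible, was at 76.7 CPM in untreated cells, 71.0 CPM with GPNA and 62.3 CPM with BenSer. Its BenSer value, −0.29 (−0.36 to −0.23), had the opposite sign to those of HSPA1A and HSPA1B; it was chosen after its values were seen.

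All 14 HSP90 co-chaperones were lower with GPNA, under each scaling, with a median of −0.17 and 12 intervals below 0. With BenSer 12 were lower, or 10 under TMM and DESeq2's scaling, with a median of −0.13 and 8 intervals below 0 (57.1% of the list, against the 46.4% above). FKBP5, a co-chaperone of steroid receptors, was lowest with both, −0.35 (−0.48 to −0.21) with GPNA and −0.57 (−0.70 to −0.44) with BenSer. AHSA1, which speeds the ATPase of HSP90, was highest with BenSer at 0.12 (0.07 to 0.17) and was −0.06 with GPNA.

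TRiC, the chamber that folds actin and tubulin in the cytosol, and prefoldin, which hands clients to it, have 14 subunits in the list. With BenSer all 14 subunits lay below the control, or 13 under TMM and DESeq2's scaling, with a median of −0.24 and 12 intervals below 0, against 59.7% of genes at 20 CPM or more lower and 46.4% with such intervals. With GPNA 12 lay below, or 10 under the other scalings, with a median of −0.12 and 9 intervals below 0, against 69.9% and 43.7%. The prefoldin subunit PFDN5, chosen after its values were seen, had a GPNA interval above 0 (0.13, 0.08 to 0.19). VBP1, a prefoldin subunit, was lowest with BenSer (−0.49, −0.61 to −0.37), and PFDN2 was nearest to the control (−0.04, −0.15 to 0.07). Of 9 other genes looked for and taken as small heat shock proteins, 3 were listed. HSPB11 was at −0.14 with GPNA and −0.12 (−0.25 to 0.00) with BenSer. With BenSer CRYAB was at 0.34 (0.04 to 0.71) on 36 merged reads in untreated cells and 80 in treated ones, and HSPB8 at 0.07 (−0.17 to 0.33); both were added after their values were seen. The medians of the 3 were −0.14 with GPNA, the value of HSPB11, and 0.07 with BenSer, that of HSPB8. The BenSer median was −0.05 without the first control library and 0.20 without the second.

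Of 13 other mitochondrial chaperones and proteases, 10 were lower with GPNA (median −0.10) and 11 with BenSer (median −0.20; 10 lower under TMM and DESeq2's scaling), with 8 intervals below 0 in each case (61.5% of the list, against 43.7% and 46.4% of genes at 20 CPM or more). The share lower with GPNA, 76.9%, is near the 69.9% of those genes. HSPA9, the HSP70 of the matrix, was at 288 CPM in untreated cells, 265 CPM with GPNA and 211 CPM with BenSer, with differences of −0.12 (−0.16 to −0.09) and −0.45 (−0.48 to −0.41). GRPEL2, an exchange factor of HSPA9, was highest with BenSer at 0.12 (0.05 to 0.19).

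Outside the cytosolic and mitochondrial machines, other heat-inducible genes did not share one direction, while most endoplasmic reticulum chaperones were higher with GPNA. Of 7 other heat-inducible genes, 4 had intervals above 0 and 3 below 0 with BenSer, against 27.6% and 46.4% of genes at 20 CPM or more. With GPNA 2 had intervals above 0 and 1 below 0, against 13.1% and 43.7%. SERPINH1 (HSP47), a collagen chaperone, was the highest at 0.43 (0.35 to 0.51) and was −0.03 with GPNA, and IER5, a coactivator of HSF1, was lowest at −0.16 (−0.28 to −0.05). For 12 chaperones of the endoplasmic reticulum, which answer to the unfolded protein response, 11 were higher with GPNA (median 0.05, or 0.09 under TMM). With BenSer 8 were higher (median 0.03, or 0.08 under TMM scaling). With GPNA the interval lay above 0 for 7, against 13.1% of genes at 20 CPM or more, and below 0 for 1, against 43.7%. With BenSer it lay above 0 for 6, against 27.6%, and below 0 for 2, against 46.4%. DNAJB9 was past 1.5-fold with both, at 5.51 CPM in the control and 10.3 CPM with each compound, differences of 0.79 (0.60 to 1.00) and 0.80 (0.61 to 1.00). PDIA4 was at 0.00 with GPNA and lowest with BenSer among those of at least 5 CPM, −0.09 (−0.13 to −0.06).

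**Figure D5:**
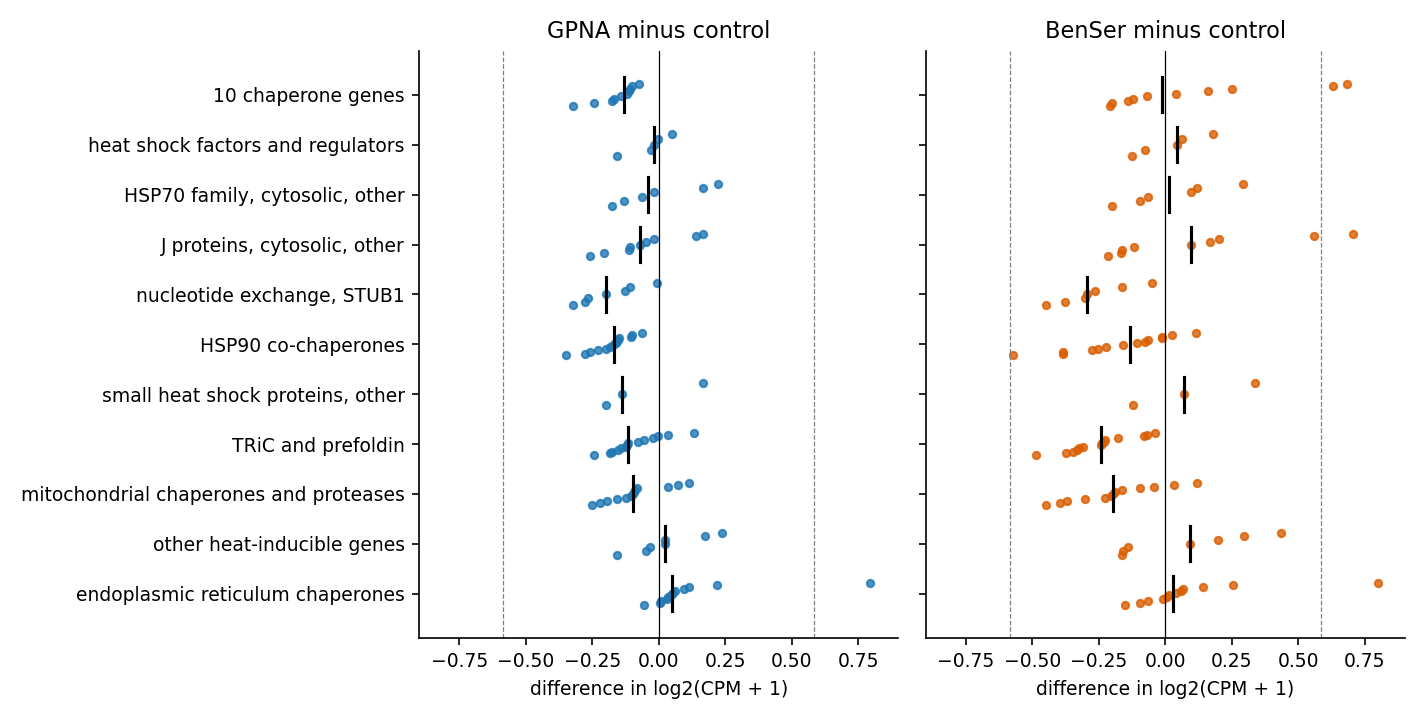
Difference from the control in log2(CPM + 1) for every tested gene of the 10 chaperone genes and of 10 related lists, with GPNA (left) and BenSer (right); points are genes, black ticks list medians and dashed lines 1.5-fold. The medians of the exchange factors, HSP90 co-chaperones and TRiC lie left of 0 in both panels, whereas HSPA1A, HSPA1B and DNAJB4 lie right of the upper 1.5-fold line with BenSer and DNAJB9 with both.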

How the data were processed

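Total RNA of PC-3 cells was sequenced as paired-end reads from a stranded library kit. The authors trimmed the reads, aligned them by TopHat2 to the build hg19/GRCh37.p13 and counted them per gene; the submitters' processing notes also name Bowtie2, HTSeq and DESeq. Whether counting used the strand is not given in the sources used here. The authors deposited CPM, the reads of a gene over the total of its library, and 100% of the values were whole reads within 0.02 reads, so reads and totals were recovered. The tables also hold the log2 fold changes and p-values of the authors' own comparisons, which were not used. The authors describe 4 replicates per group, and each table has 4 value columns per group where the labels name 2 libraries. Columns 1 and 2, which carry the labels' names, were used, and 8 column entries were not used, though they had been seen.

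A gene entered a comparison where either group averaged 5 reads or more, with a pseudocount of 1 CPM. Between 51.6% and 52.7% of the reads fell on listed genes. The planned count test, edgeR's quasi-likelihood test (edgeR 4.0.16, R 4.3.3, Benjamini-Hochberg adjustment), was run on the recovered reads. The members and lists were chosen with earlier results of these data known. Of each list, the text names genes at least 1.5-fold different from the control with at least 50 reads and an interval off 0, and the genes highest and lowest with BenSer among those of at least 5 CPM in the control. The backgrounds at 20 CPM or more and those for the order of libraries were added after the data were seen. Positions and transcript lengths come from GENCODE v44 lifted to GRCh37, promoters from RefSeq. Alternatives were other pseudocounts, filters, thresholds and scalings, single libraries left out, HSPA1A and HSPA1B summed, rows of a name summed and a replicate block. The scripts (Python 3.11.15, numpy 2.4.6, pandas 2.3.3, scipy 1.17.1, matplotlib 3.10.9; DESeq2 1.42.0 for size factors) were tested on simulated data. The marker genes expected to be low in PC-3 cells are not reported here.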

Additional observations from a re-analysis of the deposited data

Results flagged for a closer look

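For 4 of the genes both GPNA libraries lay below both control libraries while both BenSer libraries lay above them, an order found for 5.59% of all genes and 10.9% of those at 20 CPM or more. The difference of BenSer minus GPNA was 0.79 for HSPA1A, 0.77 for HSPA1B, 0.49 for HSPH1 and 0.23 for DNAJB1 in log2(CPM + 1). With 1 sample per group this difference in direction was not tested, the concentrations were unequal, and both comparisons share the control libraries.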

How the results depend on the processing

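The direction of every member whose counting interval lay off 0 was kept under all alternatives run. The threshold of 25%, here and below, asks that the higher level, in CPM + 1, exceed the lower one by 25%. It counted 1 gene lower with GPNA, HSP90AA1. A threshold of 2-fold counted 0 genes higher with BenSer against the control and 0 against GPNA. Summing HSPA1A and HSPA1B left 1 gene past 1.5-fold with BenSer and a median of −0.0685. With single libraries left out, 1 to 2 members were past 1.5-fold with BenSer, the lower count coming without the second BenSer library. Scaling to the reads on listed genes gave 2 members with intervals below 0 in the comparison of BenSer with GPNA, in place of 1. The median of the endoplasmic reticulum chaperones with BenSer was 0.0753 under TMM and 0.0766 under DESeq2's factors, which moved the median of all genes by less than 0.1. Over all genes, 76, 671 and 356 genes were past 1.5-fold with GPNA, BenSer and BenSer against GPNA; with a pseudocount of 0.1 these counts were 1531, 2602 and 2173, with 0.5 they were 232, 1012 and 655, at 25% 1054, 3357 and 2657, and at 2-fold 9, 92 and 30. No member or listed gene occurs in more than 1 row, so summing rows changed none of their values.

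Deviations of same-numbered libraries from their group means correlated weakly, at 0.0950, 0.0949 and 0.114 over 5447 genes. Not every pair was above 0.1 and no label ties the numbers to a batch, so they were not taken as pairs. With the replicate block edgeR called 7 members with GPNA and 8 with BenSer, as without it, and 3587 and 7030 genes in place of 3595 and 7068. With 1 sample per group, counting error is the only error measured. The wide intervals of HSPE1 rest on 106 to 137 merged reads per group.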
